A study of Mus musculus with 24 samples.

Results

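The respiratory chain is built from proteins of 2 genomes, and its transcripts were followed here through cardiac differentiation of mouse embryonic stem (ES) cells. The members were all records of the gene table whose name starts with Nduf, Uqcr, Atp5, Cox4, Cox5, Cox6, Cox7, Cox8 or mt-, together with Sdha, Sdhb, Sdhc and Sdhd, and without Cox7a2. The rule found 104 of 14737 gene records, 91 of them nuclear and 13 mitochondrially encoded. The nuclear members divided into 44 of complex I (NADH dehydrogenase), 4 of complex II (succinate dehydrogenase), 8 of complex III (cytochrome bc1), 19 of complex IV (cytochrome c oxidase) and 16 of complex V (ATP synthase). Complex I included 8 assembly factors, complex IV the gene pair Ndufa4 and Ndufa4l2, and complex V the related factor Atp5s. The mitochondrial members were 7 of complex I, 1 of complex III, 3 of complex IV and 2 of complex V. A filter on low values (at least 1 FPKM in at least 3 of 24 libraries) kept 103 of the 104. Cox8c, a testis isoform, was the member left untested.

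The study sequenced polyadenylated RNA from ES cells of strain 129/Sv, either Carma3xpA/+ or WT, and from their derivatives. Carma3xpA/+ stands in the usual notation for 1 allele of the long noncoding RNA gene Carma that carries a cassette of 3 polyadenylation signals, with the other allele intact, and WT cells are wildtype. Both genotypes were sampled at d0, as ES cells kept on mouse embryonic fibroblasts with serum and LIF, and at d3, d6 and d10, as embryoid bodies made in hanging drops, with 3 libraries in each of the 8 groups. The labels do not say whether the 3 libraries of a group came from separate cultures or clones, so p-values measure only the spread between these libraries. The level of Carma was not analysed here and gives no check of the genotype labels. An embryoid body is a mixture of cell types, so fewer cells of a type and less RNA per cell cannot be told apart in these bulk values.

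Complexes I, III and IV move electrons from NADH to oxygen and pump protons across the inner mitochondrial membrane, complex II feeds electrons in from succinate, and complex V uses the proton gradient to make ATP. Mitochondrial DNA encodes membrane-embedded subunits of complexes I, III, IV and V, and is transcribed as long polycistronic RNAs that are then cut into gene transcripts. All other subunits are nuclear, among them every subunit of complex II and those of complex I that carry the flavin and iron-sulphur groups. Complex IV has tissue-restricted isoforms, among them Cox6a2, Cox7a1 and Cox8b of heart and skeletal muscle and Cox4i2 of lung and other oxygen-sensing cells, which replace the widely expressed Cox6a1, Cox7a2, Cox8a and Cox4i1.

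Sequences that the results turn on come first. The genes of both mitochondrial ATP synthase subunits share 43 bases (chrM:7927-7969, plus strand), in which mt-Atp8 ends and mt-Atp6 begins, so that reads there can belong to either gene. They are shown because mt-Atp6 had the largest fall of the mitochondrial genes. Capitals mark the start codon of mt-Atp6.
mt-Atp8 and mt-Atp6 overlap: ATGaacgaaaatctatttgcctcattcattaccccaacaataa
Atp5c1, the gamma subunit of ATP synthase, has a cassette exon of 37 bases (chr2:10056770-10056806, minus strand) that the transcripts Atp5c1-202 and Atp5c1-203 hold and Atp5c1-201 skips. It is shown because the share of Atp5c1-201 moved during differentiation. The first line has the exon in capitals between 15 bases of each neighbouring exon, and the second the junction that skipping makes.
Atp5c1 with the exon: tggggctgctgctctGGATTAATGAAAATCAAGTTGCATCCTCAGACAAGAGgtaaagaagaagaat
Atp5c1-201 junction: tggggctgctgctctgtaaagaagaagaat
The muscle isoform Cox8b, its widely expressed partner Cox8a, and Cox6a1, the partner of Cox6a2, are shown by their promoters because Cox8b appeared only late. Capitals mark matches, on either strand, to GCGCATGCG (part of the NRF1 site of respiratory genes, CGCATGCGC on the other strand), CCGGAAG (an ETS site, CTTCCGG on the other strand), CAGCTG (an E-box) and TATAAA.
Cox8b (chr7:140900397-140900696, minus strand): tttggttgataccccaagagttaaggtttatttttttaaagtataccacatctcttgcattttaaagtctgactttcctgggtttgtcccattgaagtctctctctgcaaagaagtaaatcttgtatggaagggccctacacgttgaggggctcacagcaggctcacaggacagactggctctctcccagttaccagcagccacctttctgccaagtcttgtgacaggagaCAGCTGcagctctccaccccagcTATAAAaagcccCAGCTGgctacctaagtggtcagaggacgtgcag
Cox8a (chr19:7217567-7217866, minus strand): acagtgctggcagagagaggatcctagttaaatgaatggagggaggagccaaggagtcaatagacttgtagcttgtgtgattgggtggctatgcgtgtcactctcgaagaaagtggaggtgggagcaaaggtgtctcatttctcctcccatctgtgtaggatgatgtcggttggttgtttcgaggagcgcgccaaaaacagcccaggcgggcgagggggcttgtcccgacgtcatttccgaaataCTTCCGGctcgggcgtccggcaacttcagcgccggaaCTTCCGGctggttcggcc
Cox6a1 (chr5:115348909-115349208, minus strand): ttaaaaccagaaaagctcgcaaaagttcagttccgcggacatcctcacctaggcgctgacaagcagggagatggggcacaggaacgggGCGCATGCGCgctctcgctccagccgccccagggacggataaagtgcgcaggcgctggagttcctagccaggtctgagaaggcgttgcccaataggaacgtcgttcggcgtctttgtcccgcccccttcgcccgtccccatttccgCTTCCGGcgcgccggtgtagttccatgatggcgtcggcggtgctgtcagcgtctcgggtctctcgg
Promoters are those of RefSeq on GRCm38.p6, and the exon and overlap sequences were read from GENCODE transcripts on GRCm38. Within its window Cox8b held CAGCTG at -19 and 16 and TATAAA at 4 relative to the annotated start, and neither an NRF1 nor an ETS match. Cox8a held the ETS letters at -5 and 32, and Cox6a1 held the NRF1 letters at -162, with those of the other strand 1 base on, and the ETS letters at -16. Of 91 nuclear members 73 had a promoter in the table, and the NRF1 letters occurred in 10 of them (13.7%), against 478 of all 27025 promoters (1.77%). The ETS letters occurred in 18 of the 73 (24.7%) and in 9.08% of all promoters, CAGCTG in 6 (8.22%) and 16.2%, and TATAAA in 7 (9.59%) and 14.1%. A match is a description of letters and not evidence of binding.

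Values are the authors' FPKM, a level per transcript length and sequencing depth, whose read depth is unknown. The libraries summed to 245274 to 306848 FPKM over all genes and held 10667 to 11921 genes at 1 FPKM or more. Log2 values of replicates correlated at 0.967 to 0.994 except for replicate 1 of Carma3xpA/+ at d0, which correlated at 0.950 and 0.955 with its partners, against 0.990 between these. In that library 80 of 90 nuclear members lay above the mean of the other 2 replicates, by a median of 0.57 on the log2 scale, while all tested genes lay at -0.15. The main counts that rest on this library are therefore given with and without it. The d0 length classes, the d0 chromosome 11 values and most log2 values of single genes are given only with it. Carma3xpA/+ libraries of d10 also differed. There 7 of 90 nuclear members lay above the partners' mean in replicate 1 (median -0.24) and 75 in replicate 2 (median 0.18). ES cell markers were high at d0, where 6 of them summed to 840.1 to 1107 FPKM in Carma3xpA/+ and 972 to 1028 in WT. At d10, 10 cardiomyocyte markers summed to 1124 to 1684 FPKM in Carma3xpA/+ and 454 to 678 in WT. Their sums at d0 were 23.004 to 26.3 in Carma3xpA/+ and 18.1 to 20.3 in WT. At d6 they were 574 to 684 in Carma3xpA/+ and 663 to 862 in WT, where the WT range reached higher than at d10.

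Respiratory chain transcripts were abundant in every library. In Carma3xpA/+ cells the 13 mitochondrial genes held 6.87, 7.31 and 8.64% of summed FPKM at d0, 8.20, 8.76 and 7.71% at d3, 4.60, 6.22 and 5.37% at d6 and 9.70, 7.82 and 8.58% at d10. In WT cells they held 8.77, 8.36 and 9.10% at d0, 8.74, 8.97 and 8.43% at d3, 6.08, 6.61 and 5.39% at d6 and 8.71, 8.97 and 8.22% at d10, so d6 was the lowest day in both genotypes. The 91 nuclear members together held 1.90% to 2.98%. Globin genes held up to 1.89% of summed FPKM at d6. The summed FPKM of the nuclear members in Carma3xpA/+ libraries was 9095, 5479 and 5957 at d0, 6101, 5855 and 6245 at d3, 4975, 5069 and 5311 at d6 and 7299, 9074 and 8355 at d10. In WT libraries it was 4827, 4913 and 5270.4 at d0, 5641, 6093 and 5992 at d3, 5267, 5965 and 4752 at d6 and 7083, 7212 and 6755 at d10. Every d10 library of WT exceeded every earlier WT library, and the d0 value of Carma3xpA/+ replicate 1 stood far above both others of its group.

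**Figure D1:**
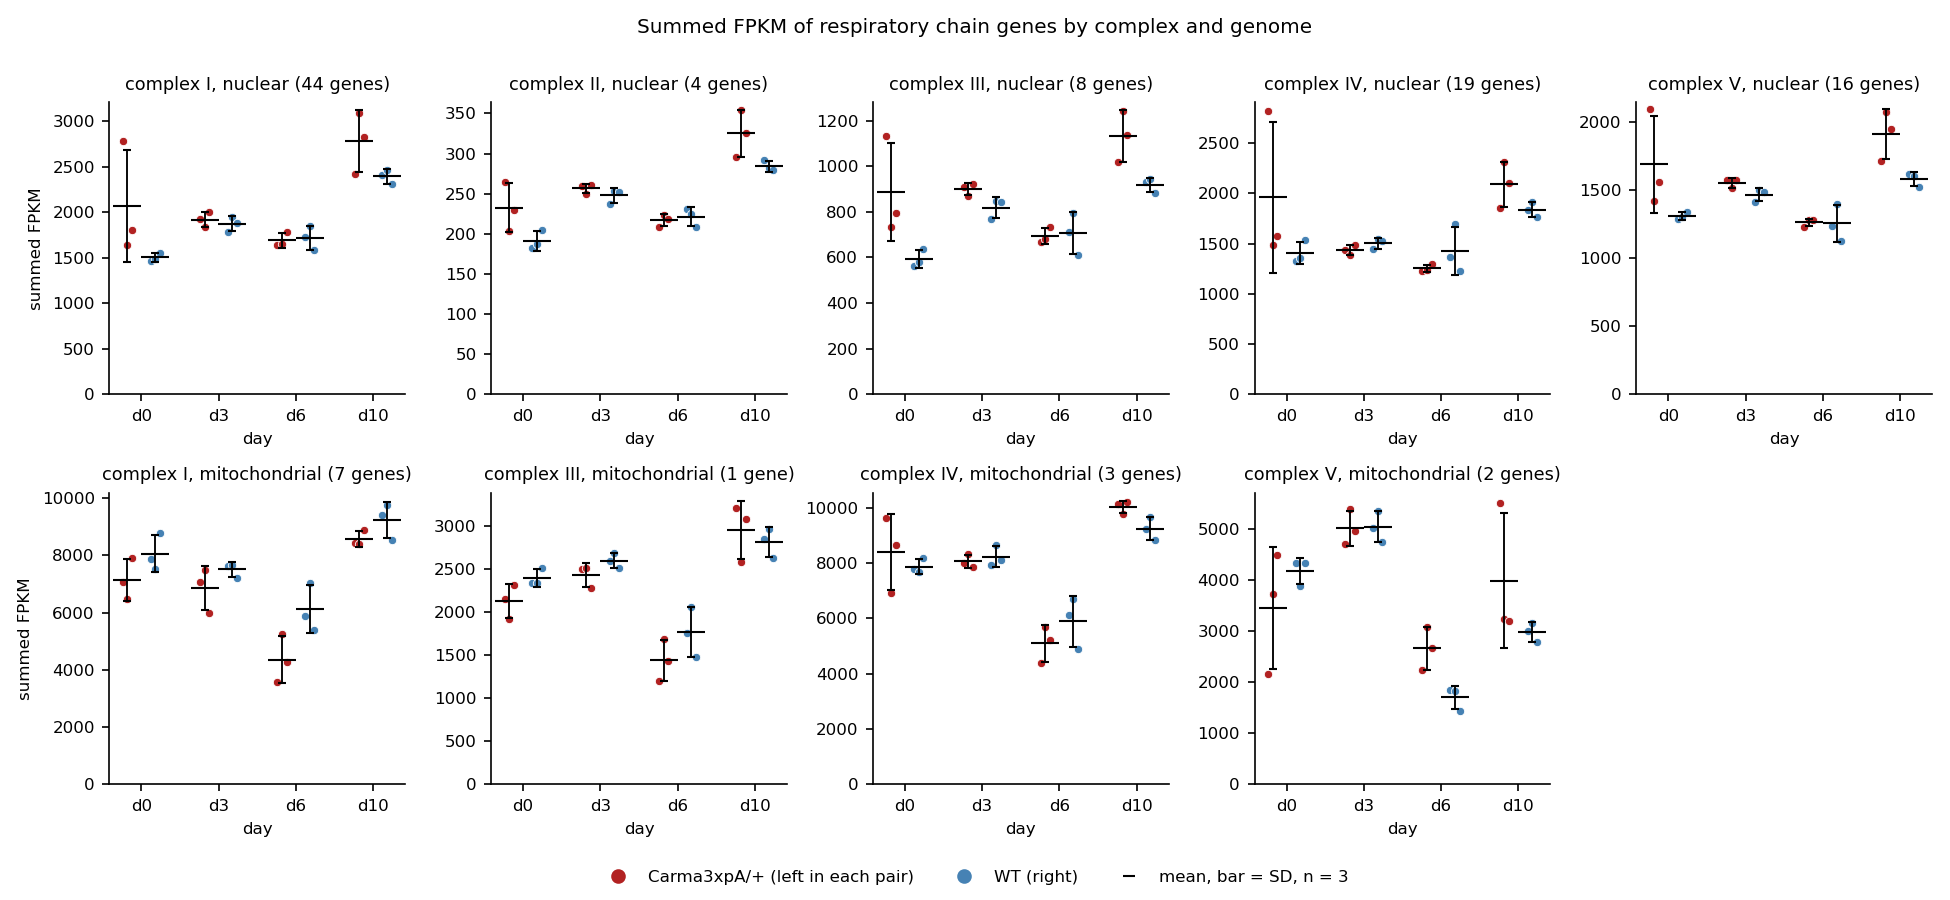
Summed FPKM of the members of each complex, nuclear and mitochondrial, in each of the 24 libraries (vertical axes, FPKM) against day (horizontal axes), with Carma3xpA/+ left of WT, points for libraries, black lines for means and bars for SD (n = 3). The mitochondrial sums dip at d6 in both genotypes, the WT nuclear sums are highest at d10, and Carma3xpA/+ d0 replicate 1 lies above its partners in the nuclear panels.

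Levels within a complex spread widely. Means over all 24 libraries ran from 4.40 FPKM for Ndufb2 to 137 for Ndufa6 among accessory subunits of complex I, from 16.5 for Ndufs1 to 69.1 for Ndufv2 among its nuclear core subunits, which carry the flavin and iron-sulphur groups, and from 4.99 for Ndufaf4 to 15.99 for Ndufaf1 among its assembly factors. In complex II they ran from 26.0 for Sdhc to 120.0 for Sdhd, both membrane anchors, in complex III from 38.2 for Uqcrc1 to 203 for Uqcr10, in complex IV from 23.8 for Cox6c to 279 for Cox6b1 among widely expressed subunits, and in complex V from 22.1 for Atp5l to 273 for Atp5b, the catalytic beta subunit. Atp5s averaged 3.62 FPKM and Cox7a2l, which helps join complexes III and IV into supercomplexes, 158. Mitochondrial genes ran from 107 FPKM for mt-Nd6 to 3821 for mt-Co1, the catalytic subunit of complex IV.

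Between d0 and d10 most nuclear members rose in WT cells by the values as deposited. Of 90 tested, 62 were higher at d10 and 5 lower, with a median log2 change of 0.51. Of all 13373 tested genes 70.8% changed, 42.2% up and 28.6% down, with a median of 0.16. Quantile normalization brought the all-gene median to -0.02, with 4709 genes higher and 4920 lower, and left 55 nuclear members higher and 7 lower with a median of 0.39. Median-of-ratios scaling left 44 nuclear members higher and 7 lower with a median of 0.38, and an all-gene median of 0.06. As deposited, rises were called in every complex. In complex I 32 of 44 rose and 1 fell (median 0.56), in complex II 3 of 4 rose (Sdhb, Sdhc and Sdhd), in complex III 7 of 8 rose, in complex IV 9 of 18 rose and 2 fell, and in complex V 11 of 16 rose and 2 fell. Within complex I 24 of 29 accessory subunits were higher and 0 lower, beside 4 of 7 nuclear core subunits and 4 of 8 assembly factors higher. Ndufa2, an accessory subunit of complex I, had 137, 140.0 and 137 FPKM at d10 against 56.1, 49.2 and 47.1 at d0 (2.71-fold, log2 change 1.43 ± 0.19, adjusted p = 1.02e-06). Ndufa5, another accessory subunit, had 57.8, 64.5 and 53.3 FPKM at d10 against 23.7, 23.3 and 25.4 at d0 (2.42-fold, log2 change 1.24 ± 0.13, adjusted p = 6.31e-08). In both genes all d10 libraries lay above all d0 libraries. The nuclear members that fell were Ndufaf6, a complex I assembly factor (log2 change -0.70 ± 0.12, adjusted p = 3.99e-05), the isoforms Cox6b2 and Cox7a1, Atp5b (-0.44) and Atp5s (-0.26).

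The path to d10 was not steady. Adjacent steps share the libraries of the day between them, so their values are given side by side. From d0 to d3, 40 nuclear members rose and 8 fell (median log2 change 0.34, against -0.0019 over all genes, of which 55.5% changed, 27.7% up and 27.7% down). Complex I gave 21 rises and 1 fall, complex III 5 rises and 1 fall (Uqcrc1), complex V 8 rises and 2 falls (Atp5b and Atp5s), and complex II only Sdhd. Ndufaf4, a complex I assembly factor, had 7.33, 9.10 and 9.14 FPKM at d3 against 2.53, 4.05 and 3.11 at d0 (log2 change 1.18 ± 0.22, adjusted p = 0.000131). Ndufaf8, another of them, had 13.1, 13.8 and 13.7 FPKM at d3 against 5.75, 5.99 and 6.55 at d0 (log2 change 1.04 ± 0.10, adjusted p = 4.58e-08). Uqcr11, a small subunit of complex III, had 103, 107 and 119 FPKM at d3 against 54.4, 55.5 and 56.4 at d0 (log2 change 0.97 ± 0.17, adjusted p = 7.03e-05). In each of these 3 genes all d3 libraries lay above all d0 libraries. Ndufa5 had already made most of its rise by d3 (log2 change 0.90 ± 0.13, adjusted p = 9.29e-06). Library weights called 74 members at this step, against 49 without them. Median-of-ratios scaling left 29 nuclear members higher and 8 lower, with a median of 0.29 and an all-gene median of -0.03.

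From d3 to d6 the direction turned. 25 nuclear members fell and 6 rose (median -0.19), while over all genes 60.1% changed, 35.4% up and 24.7% down (median 0.10). The scaling bears on this step: after quantile normalization 3524 genes were higher and 4536 lower, the all-gene median was -0.07 and that of the nuclear members -0.08, with 8 higher and 21 lower. Without WT d6 replicate 3 the count of members called was 26, against 41 with it. The assembly factors of complex I fell in 5 of 8 cases with 0 rises (median -0.51). Ndufaf2 led, with 6.34, 5.43 and 5.45 FPKM at d6 against 13.02, 12.8 and 12.4 at d3 (log2 change -1.03 ± 0.13, adjusted p = 5.78e-07), and Ndufaf4 followed (log2 change -0.85 ± 0.22, adjusted p = 0.0023). Ndufaf6, Ndufaf7 and Ndufaf8 also fell. In complex V 7 of 16 genes fell and Atp5s rose. Among the 6 nuclear rises were the isoforms Cox6a2, Cox4i2 and Ndufa4l2, and Ndufv3, an accessory subunit of the NADH-oxidising tip of complex I, which had 42.6, 52.1 and 43.9 FPKM at d6 against 21.6, 28.3 and 26.5 at d3 (log2 change 0.84 ± 0.19, adjusted p = 0.000908).

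From d6 to d10 nearly all calls were rises. 52 of 90 nuclear members and 9 of 13 mitochondrial genes were higher at d10, and Cox4i2 alone was lower (median 0.39 for nuclear and 0.66 for mitochondrial members). Of all genes 48.5% changed, 24.6% up and 23.9% down, with a median of -0.01. Quantile normalization left 32 nuclear and 3 mitochondrial members higher, and median-of-ratios scaling 45 and 9. Without WT d6 replicate 3 the count of members called was 40, against 62 with it. As deposited, the nuclear counts were 28 of 44 in complex I, 3 of 4 in complex II, 5 of 8 in complex III, 5 of 18 in complex IV and 11 of 16 in complex V. Ndufs8, a core iron-sulphur subunit of complex I, had 79.9, 84.3 and 74.9 FPKM at d10 against 42.9, 37.7 and 39.9 at d6 (log2 change 0.97 ± 0.15, adjusted p = 1.65e-05), and its groups did not overlap. The widely expressed complex IV genes Cox6a1 (log2 change 0.72, adjusted p = 0.00562) and Cox4i1 (0.59, adjusted p = 0.00769) rose at this step. Nuclear members are short genes, with a median transcript length of 715 bases against 2463 over all tested genes. Of all genes under 1000 bases 32.1% rose at this step with a median of 0.15, and of the 62 nuclear members in that class 36 rose with a median of 0.43.

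**Figure D2:**
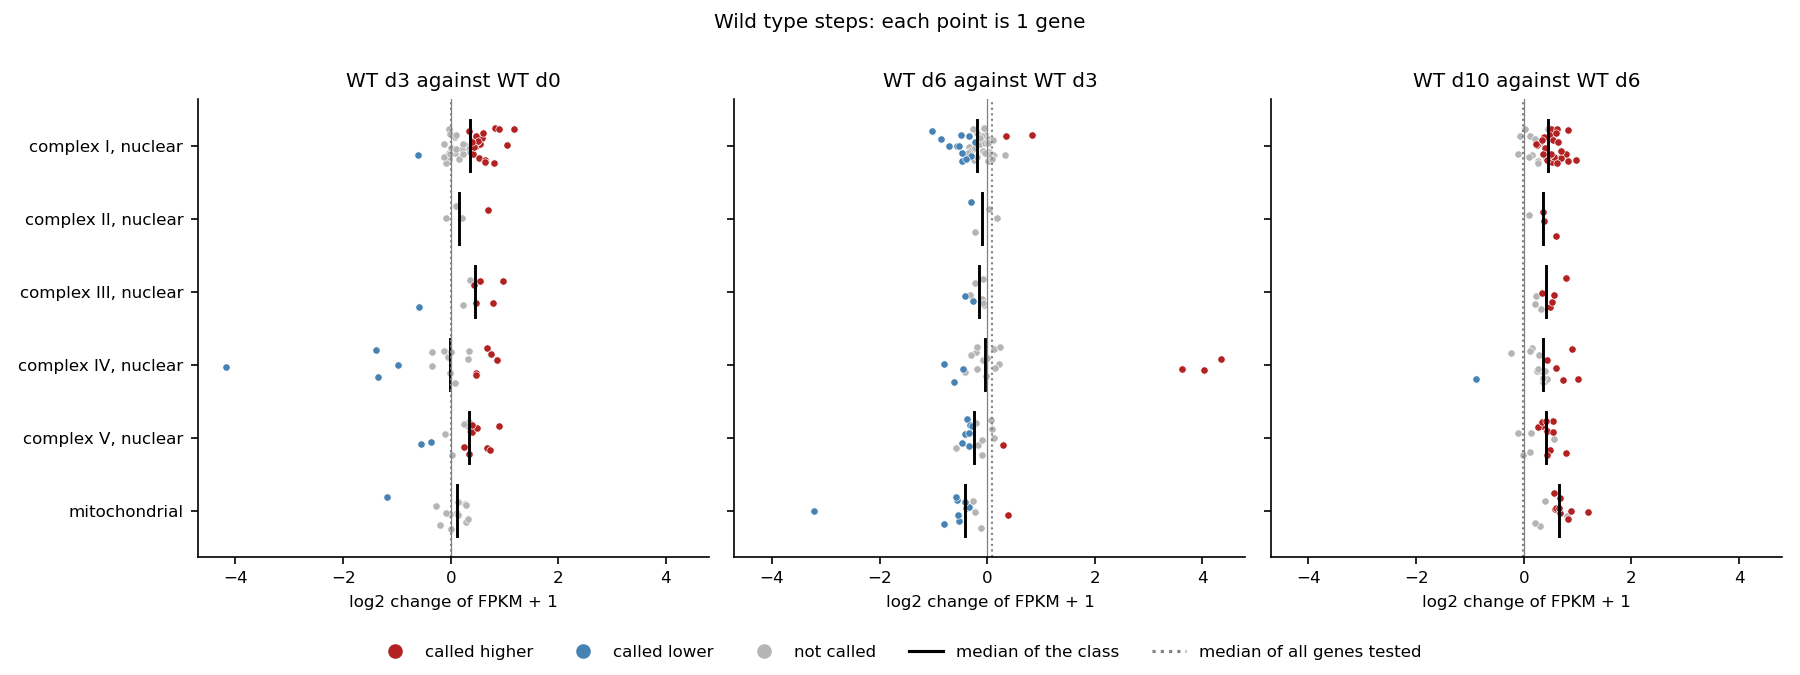
Log2 change of FPKM + 1 of each tested member in WT cells (horizontal axes) for the steps d3 against d0, d6 against d3 and d10 against d6, with 1 point per gene in rows by complex and genome, red for called higher, blue for called lower and grey for not called. Black bars are the medians of the rows and the dotted line that of all tested genes. Most nuclear points lie right of the dotted line at the first and last steps, and most mitochondrial points lie left of it at d6 and right of it at d10.

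The mitochondrial genes moved together at most steps and apart in a few genes. In WT cells 0 of 13 rose and 1 fell from d0 to d3, 1 rose and 9 fell from d3 to d6 (median -0.41), and 9 rose from d6 to d10. Quantile normalization left 4 lower at d6 (median -0.12, all genes -0.07) and 3 higher at d10 (median 0.39, all genes -0.06). It gives every library the same set of values, so it can shrink a change shared by very abundant genes such as these. Median-of-ratios scaling left 9 lower at d6 (median -0.52) and 9 higher at d10 (median 0.69). Scaling to equal summed FPKM outside the mitochondrial genes also left 9 lower at d6 (median -0.38) and 9 higher at d10 (median 0.56). Over d0 to d10, 5 were higher (mt-Co3, mt-Nd3, mt-Nd4, mt-Nd4l and mt-Atp8) and 2 lower (mt-Atp6 and mt-Nd6), with a median of 0.21, which quantile normalization brought close to 0 with 3 higher and 2 lower. With median-of-ratios scaling the median was 0.08, with 3 higher and 2 lower. mt-Co1 had 3055, 3077 and 2346 FPKM at d6 against 4048, 4153 and 3952 at d3 (log2 change -0.53 ± 0.12, adjusted p = 0.000734), and mt-Cytb, the core of complex III, had 1754, 2066 and 1484 at d6 against 2594, 2693 and 2517 at d3 (log2 change -0.57 ± 0.13, adjusted p = 0.000686). In both genes every d6 library was below every d3 library. The other genes that fell at d6 were mt-Nd1 (-0.35), mt-Co2 (-0.39), mt-Co3 (-0.54), mt-Nd3 (-0.59), mt-Nd4 (-0.41), mt-Atp8 (-0.80) and mt-Atp6. mt-Nd2 (-0.27, adjusted p = 0.12), mt-Nd5 (-0.23, adjusted p = 0.213) and mt-Nd4l (-0.11, adjusted p = 0.653) did not pass the test.

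mt-Co3 and mt-Nd3, neighbours on the mitochondrial genome, ended above their starting level. mt-Nd3 had 755, 845 and 785 FPKM at d10 against 363, 374 and 309.5 at d6 (log2 change 1.19 ± 0.19, adjusted p = 2.91e-05), and against 506, 441 and 488 at d0 (0.73, adjusted p = 0.00161). mt-Co3 had 2439, 2589.9 and 2382 FPKM at d10 against 1430.3, 1573 and 1091 at d6 (log2 change 0.87 ± 0.17, adjusted p = 0.00034). Against mt-Co1, mt-Co3 stood in Carma3xpA/+ at a ratio of 0.469, 0.706 and 0.585 at d10 and 0.613, 0.34 and 0.366 at d0, where replicate 1 lay within the range of the d10 libraries. In WT the same ratio was 0.574, 0.598 and 0.591 at d10 and 0.393, 0.392 and 0.365 at d0, without overlap. mt-Nd6, the one protein gene of the light strand, had 70.7, 69.2 and 71.8 FPKM at d3 against 175, 122 and 198 at d0 in WT (log2 change -1.18 ± 0.16, adjusted p = 4.41e-06), a fall that no other mitochondrial gene passed the test for at that step. It partly came back by d6 (0.38, adjusted p = 0.04999, just under the threshold), a call lost in 8 of 16 alternatives, among them median-of-ratios scaling. mt-Nd6 lies on the opposite strand, its end against that of mt-Nd5, and its ratio to mt-Nd5 was 0.073, 0.0773 and 0.0827 at d3 and 0.184, 0.135 and 0.191 at d0. The libraries were stranded per the labels, but whether strand was used in the counting is not given in the sources used here, so reads of the pair may not be fully separated.

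mt-Atp6 (ENSMUSG00000064357.1, chromosome M, 7927 to 8607) behaved unlike its neighbours. In Carma3xpA/+ it had 523, 1941 and 2414 FPKM at d0, 2467, 2695 and 2563 at d3, 1155, 1586 and 1419 at d6 and 2774, 452 and 473 at d10. Single Carma3xpA/+ libraries thus went against their own group, low in replicate 1 at d0 and high in replicate 1 at d10. In WT it had 2167, 2038 and 2229 FPKM at d0, 2547, 2744 and 2432 at d3, 287, 315 and 232 at d6 and 482, 514 and 454 at d10, a fall at d6 (log2 change -3.22 ± 0.51, adjusted p = 1.56e-05) that was still there at d10 against d0 (log2 change -2.15 ± 0.51, adjusted p = 0.000821). mt-Atp8, which overlaps it by the 43 bases shown above, had 2159, 1849 and 2097 FPKM at d0, 2462, 2610.2 and 2320.2 at d3, 1553, 1514 and 1209 at d6 and 2526, 2644 and 2325 at d10 in WT. Its fall at d6 was smaller (-0.80, adjusted p = 1.55e-05) and it was higher at d10 than at d0 (0.30, adjusted p = 0.0406). The ratio of mt-Atp6 to mt-Atp8 was 1.07, 1.06 and 1.14 in Carma3xpA/+ and 0.185, 0.208 and 0.192 in WT at d6, and 1.01, 0.162 and 0.173 in Carma3xpA/+ and 0.191, 0.194 and 0.195 in WT at d10. At d0 it was 0.322, 1.09 and 1.17 in Carma3xpA/+ and 1.003, 1.10 and 1.06 in WT, and at d3 1.11, 1.002 and 1.07 in Carma3xpA/+ and 1.03, 1.05 and 1.05 in WT. Every library had a ratio of at most 0.322 or of at least 1.002. Both genes share 1 transcript in cells, and how the authors' quantification divided its reads between them was not tested.

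**Figure D3:**
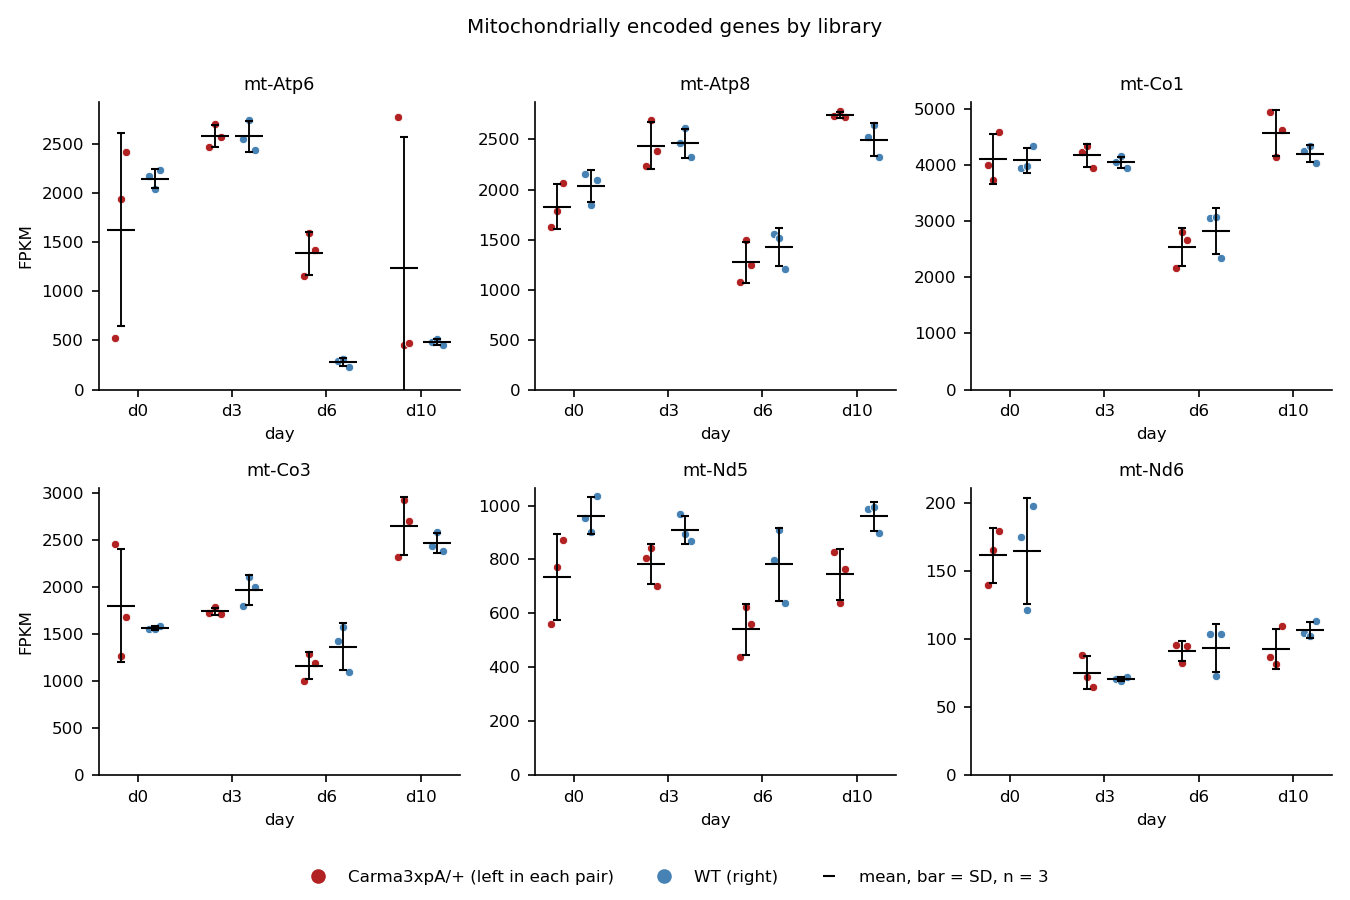
FPKM (vertical axes) of mt-Atp6, mt-Atp8, mt-Co1, mt-Co3, mt-Nd5 and mt-Nd6 by day (horizontal axes), with Carma3xpA/+ left of WT, points for libraries, black lines for means and bars for SD (n = 3, cut at 0 where they reach below it). mt-Co1, mt-Co3 and mt-Atp8 dip at d6 and recover at d10, mt-Nd6 is highest at d0, and mt-Atp6 of WT stays low at d10.

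The largest changes of nuclear members in WT were those of tissue-restricted isoforms of complex IV, Cox6a2, Ndufa4l2 and Cox4i2. Of 7 such isoforms tested, 1 rose and 4 fell by d3, 3 rose and 1 fell from d3 to d6, and 3 were higher and 2 lower at d10 against d0. Cox6a2 (ENSMUSG00000030785.8, chromosome 7, 128205435 to 128206387), the heart and skeletal muscle form of subunit 6a, was at most 0.295 FPKM in every library of d0 and d3. It passed the filter on low values only through libraries of d6 and d10, so its test at d6 against d3 adds nothing beyond the levels. In WT it had 15.7, 28.7 and 18.5 FPKM at d6 (log2 change 4.34 ± 0.22, adjusted p = 1.33e-12 against d3) and 39.4, 39.3 and 37.01 at d10 (log2 change 0.89 ± 0.22, adjusted p = 0.00233 against d6). Its share of Cox6a2 and Cox6a1 together was 14.4, 13.5 and 14.2% in WT at d10 and 10.7, 14.7 and 12.2% at d6, so Cox6a1 remained the main form. With a pseudocount of 0.1 the d10 step of Cox6a2 was not called (adjusted p = 0.118).

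Cox4i2 (ENSMUSG00000009876.13, chromosome 2, 152754173 to 152765037), the isoform of subunit 4 linked to low oxygen, peaked at d6. In WT it had 2.87, 3.46 and 3.40 FPKM at d0, 0.687, 0.528 and 0.76 at d3, 24.8, 27.8 and 25.7 at d6 and 12.3, 13.4 and 15.6 at d10. It fell at d3 (log2 change -1.35 ± 0.19, adjusted p = 4.88e-06), rose at d6 (log2 change 4.03 ± 0.19, adjusted p = 4.33e-13) and fell at d10 against d6 (log2 change -0.88 ± 0.19, adjusted p = 0.000745), and its share of Cox4i2 and Cox4i1 was 8.02, 7.52 and 9.07% at d10 and 19.9, 20.8 and 20.6% at d6. Ndufa4l2 (ENSMUSG00000040280.10, chromosome 10, 127514967 to 127517154), a hypoxia-inducible paralog of Ndufa4, had 30.2, 32.7 and 40.4 FPKM at d0, 0.441, 1.01 and 1.52 at d3, 18.4, 26.1 and 24.3 at d6 and 22.5, 21.997 and 30.99 at d10. It fell at d3 (log2 change -4.18 ± 0.37, adjusted p = 1.02e-08) and rose at d6 (log2 change 3.61 ± 0.37, adjusted p = 4.63e-08), while Ndufa4 rose at d3 (0.68). Ndufa4l2 was thus 0.619, 1.22 and 1.78% of both genes at d3 and 39.5, 40.5 and 43.7% at d0. Epas1, which encodes the hypoxia factor HIF-2alpha and is no member, also fell at d3 (1.77 ± 0.204 FPKM against 8.33 ± 0.203 at d0, log2 change -1.75, adjusted p = 2.52e-07). It rose at d6 (10.5 ± 0.428 against 1.77 ± 0.204 at d3, log2 change 2.05, adjusted p = 1.75e-08). Epas1 was picked from the gene lists, and a link to Cox4i2 or Ndufa4l2 was not tested.

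Cox7a1, the muscle form of subunit 7a, was expressed already in ES cells and fell. It had 15.7, 14.8 and 12.2 FPKM at d10 against 23.4, 22.8 and 31.6 at d0 in WT (log2 change -0.82 ± 0.23, adjusted p = 0.00407), after a fall at d3 (log2 change -1.40 ± 0.23, adjusted p = 3.99e-05). Cox6b2, a testis isoform, had 12.1, 10.9 and 9.84 FPKM at d10 against 22.3, 22.4 and 23.7 at d0 (log2 change -0.9997 ± 0.30, adjusted p = 0.00521), and its d3 fall (-0.97, adjusted p = 0.00858) was lost without WT d3 replicate 1 (0.0653). Cox7b2, another testis isoform, stayed at or below 1.17 FPKM in WT, and its d3 rise was lost in 3 and its d6 fall in 4 leave-one-out fits. Cox8c was listed at 0 in most libraries and reached 3.09 FPKM in Carma3xpA/+ d0 replicate 1. Cox8b (ENSMUSG00000025488.9, chromosome 7, 140898945 to 140900446), the muscle form of subunit 8, was listed at 0 in every library of d0 and d3 and at or under 0.339 FPKM at d6. At d10 it had 3.13, 3.17 and 4.40 FPKM in Carma3xpA/+ and 1.25, 2.17 and 0.896 in WT. Cox8a had 266, 297 and 292 FPKM in Carma3xpA/+ and 251, 256 and 243 in WT at d10, so Cox8b was 1.17, 1.06 and 1.49% of both genes in Carma3xpA/+ and 0.493, 0.842 and 0.367% in WT.

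**Figure D4:**
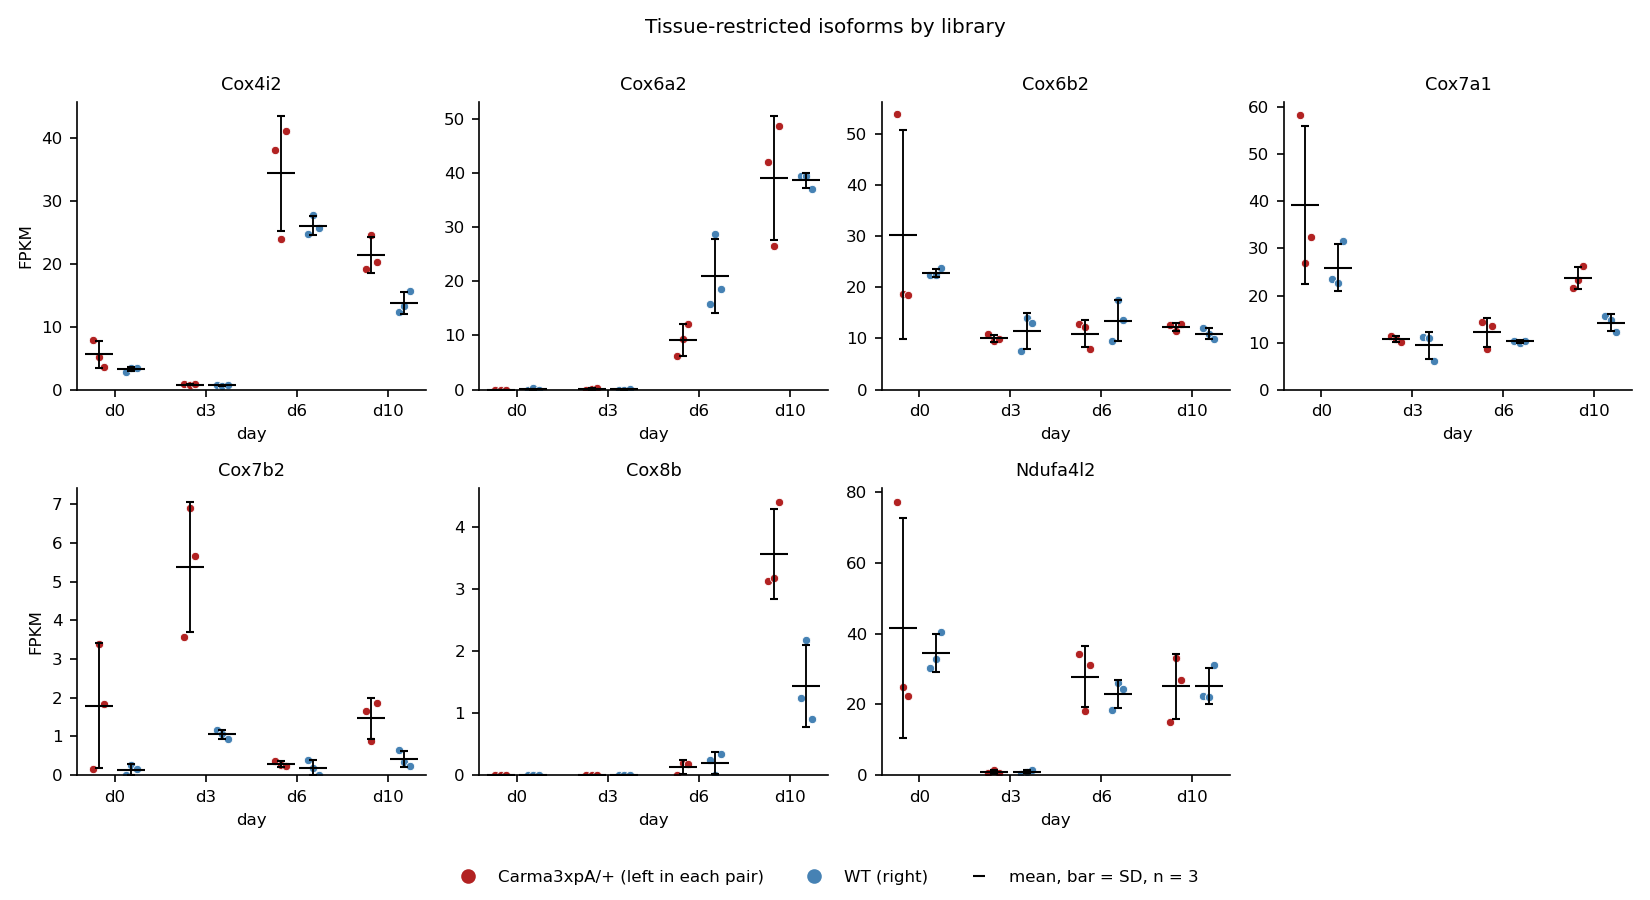
FPKM (vertical axes) of the tissue-restricted isoforms of complex IV by day (horizontal axes), with Carma3xpA/+ left of WT, points for libraries, black lines for means and bars for SD (n = 3). Cox6a2 and Cox8b appear after d3, Cox4i2 peaks at d6, Ndufa4l2 nearly vanishes at d3, and Cox8b separates the genotypes at d10.

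Transcript estimates are a separate table of the authors. Of 191 tested transcripts of 103 member genes, 71 (37.2%) were higher and 12 (6.28%) lower in WT at d10 against d0. Of all 24921 transcripts 40.3% were called, near the 43.5% of the members', with 23.8% up and 16.6% down. Atp5c1-201, which skips the 37-base exon shown above, made up 39.3, 39.7 and 17.3% of the summed FPKM of Atp5c1-201, Atp5c1-202 and Atp5c1-203, of 5 Atp5c1 transcripts tested, in Carma3xpA/+ at d10 and 8.62, 3.02 and 3.53% at d0. In WT it made up 4.04, 2.96 and 7.22% at d0, 3.46, 0.557 and 0.354% at d3, 14.2, 9.52 and 16.8% at d6 and 10.3, 15.4 and 17.3% at d10. Its level in WT rose at d6 against d3 (log2 change 3.03 ± 0.52, adjusted p = 0.000149) and was higher at d10 than at d0 (log2 change 1.88 ± 0.52, adjusted p = 0.00682). Between genotypes its d10 level missed the threshold (log2 difference 1.09 ± 0.52, adjusted p = 0.352). The gene as a whole changed less (log2 change 0.43 ± 0.09, adjusted p = 0.000458). Atp5c1-202 and Atp5c1-203 both hold the exon, and their division swung from library to library, so only their sum was used. Ndufv3-201 holds an exon of 1092 bases (chr17:31527310-31528401) that the short Ndufv3-202 lacks. Its share of the pair was 14.7, 14.7 and 8.22% at d0, 2.22, 14.8 and 14.2% at d3, 27.6, 22.8 and 26.2% at d6 and 22.9, 21.7 and 23.9% at d10 in WT. By this share all d6 and d10 libraries lay above all d0 and d3 libraries. The share was not tested. The level of Ndufv3-201 itself rose at d6 against d3 (log2 change 2.11 ± 0.64, adjusted p = 0.018).

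By the values as deposited, Carma3xpA/+ cells also gained respiratory transcripts between d0 and d10. 46 nuclear members were higher and 4 lower (median 0.33), and 6 mitochondrial genes were higher and mt-Nd6 lower, while 68.2% of all genes changed, 40.9% up and 27.3% down. Without replicate 1 of d0 the nuclear counts were 67 higher and 3 lower with a median of 0.53, beside 62 and 5 with 0.51 in WT. Median-of-ratios scaling left 27 of 90 nuclear (median 0.19) and 3 of 13 mitochondrial genes higher, with an all-gene median of 0.02 against 0.14 as deposited. With that scaling 4711 of all 13373 genes were higher and 4362 lower, so the share of members that rose was below that of all genes. A fit of only the groups compared called 27 members, against 57. Cox6a2 had 41.99, 26.5 and 48.7 FPKM at d10 and was listed at 0 in all 3 libraries of d0. Cox4i2 had 19.2, 24.6 and 20.2 FPKM at d10 against 7.88, 5.23 and 3.65 at d0 (log2 change 1.81 ± 0.19, adjusted p = 5.66e-08), and Ndufc2, an accessory subunit of complex I, had 139, 186 and 159.7 at d10 against 87.3, 73.2 and 81.6 at d0 (log2 change 0.98 ± 0.10, adjusted p = 3.24e-08). These groups did not overlap. The nuclear members that fell were Cox6b2 (-1.05), Ndufaf6 (-0.95), Cox7a1 (-0.63) and Atp5b (-0.28). The fall of Cox7a1 was lost in 5 alternatives, among them the one without d0 replicate 1 (adjusted p = 0.193), and that of Cox6b2 in the fit of only the groups compared (0.0543).

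Between genotypes 38, 4, 6 and 12 of 103 members were called at d0, d3, d6 and d10. The share of all genes called had the same order of days, with 18.8, 6.47, 7.78 and 10.9%. At d0, 38 nuclear members were higher in Carma3xpA/+ and 0 lower (median log2 difference 0.40), whereas 0 of 13 mitochondrial genes were called. Of all genes 18.8% were called, 9.53% up and 9.29% down. Without replicate 1 of Carma3xpA/+ 22 nuclear members were called, with a median of 0.19, and without WT replicate 1 or 2 the counts were 20 and 21 members. Without Carma3xpA/+ replicate 2 the count was 68. A fit of the d0 libraries alone called 0 members by limma, with 24 at an unadjusted p under 0.05. Ndufaf8 had 15.2, 11.004 and 11.8 FPKM in Carma3xpA/+ and 5.75, 5.99 and 6.55 in WT (log2 difference 0.93 ± 0.10, adjusted p = 9.54e-06). Uqcr10, a small subunit of complex III, had 349, 200.1 and 228 FPKM in Carma3xpA/+ and 124, 141 and 154 in WT (log2 difference 0.85 ± 0.16, adjusted p = 0.00126). Uqcr11 (0.82, adjusted p = 0.00279) and Ndufb10, an accessory subunit of complex I (0.82, adjusted p = 0.0036), came next. Length moved with the d0 difference across the table: genes under 1000 bases were higher in Carma3xpA/+ in 22.8% and lower in 4.78% of cases, and genes over 3000 bases in 2.53% and 13.98%. These shares include Carma3xpA/+ replicate 1. Against its partners' mean, its genes under 1000 bases lay at 0.23 and those over 3000 bases at -0.36 on the log2 scale. The part of length in the members' difference was not tested.

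At d3, 4 members were called, all higher in Carma3xpA/+ (of all genes 6.47% were called, 4.54% up and 1.93% down). Cox7b2 had 3.56, 6.90 and 5.67 FPKM in Carma3xpA/+ and 1.17, 1.06 and 0.943 in WT (log2 difference 1.60 ± 0.31, adjusted p = 0.00256), and with a pseudocount of 0.1 it was not called (0.0711). Atp5g1, which encodes the membrane ring subunit c of ATP synthase, had 36.9, 33.6 and 35.8 FPKM in Carma3xpA/+ and 20.2, 22.4 and 20.7 in WT (log2 difference 0.72 ± 0.14, adjusted p = 0.00195). Ndufaf8 (0.54, adjusted p = 0.00214) and Ndufaf1 (0.45, adjusted p = 0.00338), both assembly factors of complex I, were the others. The groups of these genes did not overlap. A fit of the d3 libraries alone called 14 members and library weights 19, and without Carma3xpA/+ d0 replicate 1 the count was 8.

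At d6, 2 members were higher and 4 lower in Carma3xpA/+ (7.78% of all genes, 4.3% up and 3.48% down). Cox6a2 had 6.12, 9.30 and 12.1 FPKM in Carma3xpA/+ and 15.7, 28.7 and 18.5 in WT (log2 difference -1.11 ± 0.22, adjusted p = 0.00278). The summed cardiomyocyte markers at d6 were 574 to 684 FPKM in Carma3xpA/+ and 663 to 862 in WT, and blood markers 1291 to 2027 in Carma3xpA/+ and 1971 to 3838 in WT. Sums that did not overlap at d6 were those of visceral endoderm, 437 to 588 FPKM in Carma3xpA/+ and 127 to 170.1 in WT, of smooth muscle, 184 to 231 in Carma3xpA/+ and 288 to 319 in WT, of macrophages, 8.75 to 9.42 in Carma3xpA/+ and 4.71 to 7.39 in WT, and of neural cells, 4.62 to 8.06 in Carma3xpA/+ and 9.91 to 11.7 in WT. The part of these cells in the differences at d6 was not tested. The call of Cox6a2 was lost with a pseudocount of 0.1 (0.157) and in a fit of the d6 libraries alone (0.0581). mt-Nd4l had 301, 424 and 358 FPKM in Carma3xpA/+ and 601, 926 and 504 in WT (log2 difference -0.87 ± 0.21, adjusted p = 0.0109). It overlaps mt-Nd4, which had 645, 904 and 770.0 in Carma3xpA/+ and 1042, 1056 and 886 in WT and was not called. mt-Nd5 (-0.53, adjusted p = 0.0417) and mt-Nd2 (-0.52, adjusted p = 0.029) were also lower. The call was lost in 4 of 17 alternatives for mt-Nd4l, in 10 of 17 for mt-Nd5 and in 6 of 17 for mt-Nd2. The mitochondrial median was -0.31 with median-of-ratios scaling and -0.28 with equal summed FPKM outside the mitochondrial genes. With quantile normalization the mitochondrial median at d6 was -0.05, against -0.29 as deposited, and the call of all 3 lower genes was lost (adjusted p = 0.0798 for mt-Nd4l, 0.304 for mt-Nd5 and 0.165 for mt-Nd2), while mt-Nd3 was then called lower (-0.50, adjusted p = 0.0343). The higher call of mt-Atp6 (log2 difference 2.31 ± 0.51, adjusted p = 0.00659) stands beside mt-Atp8 at 1079, 1492 and 1245 FPKM in Carma3xpA/+ and 1553, 1514 and 1209 in WT, where the groups overlap. The call of mt-Atp6 held in all 17 alternatives. The other higher call was Ndufaf8 (0.38, adjusted p = 0.0236), lost in 5 of 16. At d6 a fit of the d6 libraries alone, or one without WT replicate 2, called 2 members, and library weights 15.

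At d10, 11 members were higher and 1 lower in Carma3xpA/+, all nuclear, beside 10.9% of all genes (4.95% up and 5.91% down). The nuclear median was 0.22 and that of all genes -0.03. Atp5h, a stalk subunit of ATP synthase, had 229, 272 and 262 FPKM in Carma3xpA/+ and 167, 176 and 163 in WT (log2 difference 0.59 ± 0.12, adjusted p = 0.00193). Atp5g1 had 31.4, 35.3 and 32.7 FPKM in Carma3xpA/+ and 21.9, 21.4 and 20.9 in WT (log2 difference 0.61 ± 0.14, adjusted p = 0.00499). Ndufaf8 had 18.3, 21.7 and 21.5 FPKM in Carma3xpA/+ and 15.04, 12.99 and 14.5 in WT (log2 difference 0.50 ± 0.10, adjusted p = 0.00243). In each of the 3 genes the groups were apart. The other higher calls were Cox8b (0.93), Cox4i2 (0.60), Uqcr10 (0.50), Ndufs7 (0.41), Atp5d (0.40), Ndufa9 (0.35), Ndufaf1 (0.29) and Atp5a1 (0.26). Of these, Cox8b lost its call in 2 of 16 alternatives (pseudocount of 0.1, 0.0674, and a fit of the d10 libraries alone, 0.0592), Uqcr10 in 9 of 16, Ndufs7 in 6 of 17, Atp5d in 11 of 17, Ndufa9 in 1 of 17, Ndufaf1 in 9 of 17 and Atp5a1 in 9 of 17, while Atp5h, Atp5g1 and Ndufaf8 kept theirs in all 16. Ndufaf4 was lower, with 3.03, 3.42 and 2.96 FPKM in Carma3xpA/+ and 10.8, 5.01 and 4.19 in WT (log2 difference -0.79 ± 0.22, adjusted p = 0.0235), and lost its call without WT replicate 1 (0.145), without Carma3xpA/+ replicate 3 (0.0821) and in a fit of the d10 libraries alone (0.186). Cox4i2 had 19.2, 24.6 and 20.2 FPKM in Carma3xpA/+ and 12.3, 13.4 and 15.6 in WT (log2 difference 0.60 ± 0.19, adjusted p = 0.0472), a call lost in 12 of 17 alternatives. Cox7a1 had 21.7, 23.3 and 26.2 FPKM in Carma3xpA/+ and 15.7, 14.8 and 12.2 in WT and missed the threshold (0.70, adjusted p = 0.0586). Cox6a2, the more abundant muscle isoform, was not called. Its share of Cox6a2 and Cox6a1 was 14.6, 7.13 and 15.3% in Carma3xpA/+ and 14.4, 13.5 and 14.2% in WT, where the groups overlap. In the tests of the genotype difference between days, Cox8b was the 1 of 103 members called for d10 less d0, beside 6.25% of all genes (2.53% up and 3.72% down), and for d10 less d6, beside 4.22% (1.51% up and 2.71% down). Cox8b was at 0 in all d0 libraries and at 1 FPKM or more in 5 libraries, all of d10, so the first value is the d10 difference itself and tests nothing beyond it. At d6 every library was under 1 FPKM, so the second value too rests on the d10 difference. For the other members called at d10 no difference between days was called.

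Cell type markers also differed between genotypes at d10. Cardiomyocyte markers summed to 1124 to 1684 FPKM in Carma3xpA/+ and 454 to 678 in WT, smooth muscle markers to 1561 to 1614 in Carma3xpA/+ and 1202 to 1430.1 in WT, skeletal muscle markers to 70.04 to 96.6 in Carma3xpA/+ and 31.5 to 44.9 in WT, and fibroblast markers to 234 to 314 in Carma3xpA/+ and 530.1 to 686 in WT. Macrophage markers summed to 35.004 to 52.6 in Carma3xpA/+ and 97.99 to 104 in WT, and neural markers to 24.3 to 50.6 in Carma3xpA/+ and 52.9 to 71.2 in WT, and in none of these 6 sums did the genotypes overlap. The skeletal muscle sum was higher still in ES cells at d0, with 125 to 145 FPKM in Carma3xpA/+ and 104 to 122 in WT. Tnnt2, a cardiac troponin gene, had 51.9, 28.6 and 54.5 FPKM in Carma3xpA/+ and 26.7, 28.5 and 20.1 in WT at d10. The part of these cells in the members' differences was not tested. Length classes differed less than at d0: genes under 1000 bases were higher in 8.74% and lower in 3.43% of cases, and genes over 3000 bases in 1.98% and 6.85%. The count of 12 members at d10 also depended on single libraries, from 5 without WT replicate 1 or Carma3xpA/+ replicate 3 to 24 without Carma3xpA/+ replicate 1 and 27 without Carma3xpA/+ d0 replicate 1, which enters the shared spread. A fit of the d10 libraries alone called 6, and library weights 63. The weights of Carma3xpA/+ d10 replicates 1, 2 and 3 were 0.228, 0.320 and 5.77, so the weighted count rests largely on replicate 3 in that group.

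Position on chromosome 11 moved with the genotype. The 5 tested members there, Uqcrq, Uqcr10, Atp5g1, Atp5h and Ndufaf8, were higher in Carma3xpA/+ in 5, 2, 1 and 4 cases at d0, d3, d6 and d10, with medians of 0.79, 0.50, 0.23 and 0.50. The 85 nuclear members elsewhere were higher in 33, 2, 0 and 7 cases, with medians of 0.39, -0.0032, -0.04 and 0.21. Over all 1085 tested genes of chromosome 11, 22.2%, 22.4%, 20.6% and 22.9% were higher on the 4 days, against 8.41%, 2.96%, 2.86% and 3.36% of 12288 genes elsewhere. The d0 values here all include Carma3xpA/+ replicate 1. With all chromosome 11 genes left out, an alternative chosen after the data were seen, 33, 2, 4 and 6 members were called. The labels do not state a copy number of this chromosome, and the genotype and the chromosome 11 difference cannot be told apart for these 5 members.

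**Figure D5:**
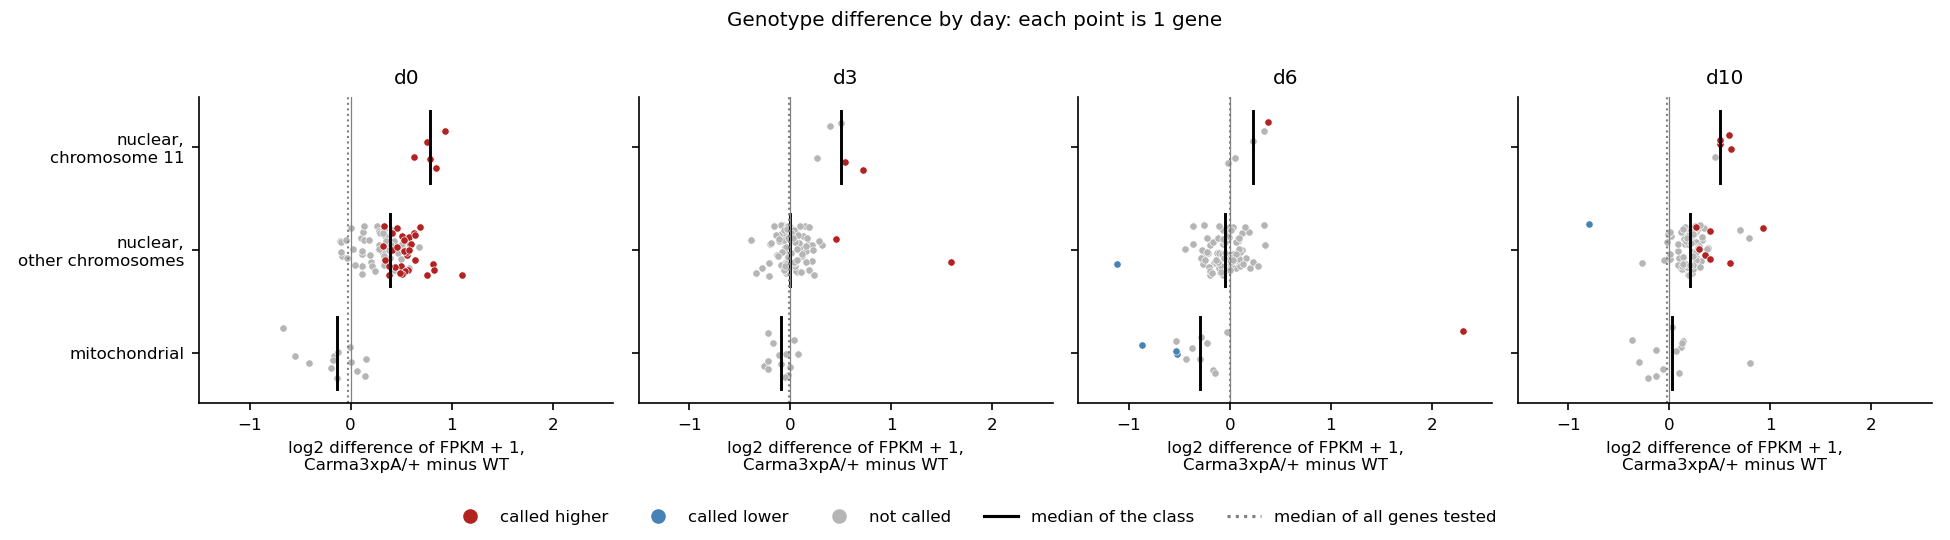
Log2 difference of FPKM + 1, Carma3xpA/+ minus WT (horizontal axes), for each tested member at d0, d3, d6 and d10, with 1 point per gene in rows for nuclear members on chromosome 11, other nuclear members and mitochondrial members, coloured red for called higher, blue for called lower and grey for not called. Black bars are row medians and dotted lines the medians of all tested genes. The median of the chromosome 11 members lies above 0 on all 4 days, and the other nuclear members lie mostly above 0 at d0 and d10.

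Genes that serve the chain without being members moved in part with it. From d0 to d10 in WT, 22 of 39 tested assembly factors of the complexes outside the member rule rose and 3 fell, led by Coa3, a complex IV assembly factor (69.4 ± 1.89 FPKM at d10 against 20.1 ± 3.42 at d0, log2 change 1.75, adjusted p = 5.46e-11). The adenine nucleotide carriers and outer membrane channels rose in 4 and fell in 4 of 10 cases, with Slc25a4, the heart form of the ADP/ATP carrier, at 247 ± 10.95 FPKM at d10 against 84.1 ± 4.36 at d0 (log2 change 1.55, adjusted p = 4.86e-12). Of 17 genes of the tricarboxylic acid cycle 10 rose and 3 fell, with Idh2 at 78.2 ± 3.05 against 40.96 ± 2.52 (log2 change 0.92, adjusted p = 2.17e-09). Cytochrome c gene Cycs rose (61.9 ± 3.40 FPKM at d10 against 41.3 ± 0.768 at d0, log2 change 0.57, adjusted p = 4.16e-05) while its testis form Cyct fell (0.857 ± 0.266 against 8.93 ± 0.342, log2 change -2.43, adjusted p = 2.11e-11). Import and chaperone genes rose in 4 and fell in 4 of 14 cases, with Hspa9, a matrix chaperone, at 145 ± 4.05 against 290.3 ± 6.45 (log2 change -1.00001, adjusted p = 6.87e-11). The background for these counts is the 42.2% of all genes that rose and 28.6% that fell.

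Most genes for copying and reading mitochondrial DNA rose at d3 and fell at d6. Of 15 tested, 11 rose and 1 fell at d3, 0 rose and 12 fell at d6, and 1 rose and 2 fell at d10 against d6, where 9 of 13 mitochondrial genes rose. Tefm, the mitochondrial transcription elongation factor, had 17.6 ± 0.361 FPKM at d3 against 5.46 ± 0.638 at d0 (log2 change 1.53, adjusted p = 3.09e-08), and the exonuclease gene Mgme1 had 7.97 ± 0.618 at d6 against 17.5 ± 0.371 at d3 (log2 change -1.05, adjusted p = 3.82e-09). Over all genes 27.7% rose at d3 and 24.7% fell at d6, and 24.6% rose and 23.9% fell at d10 against d6. Of 14 genes of mitochondrial RNA stability and processing, 8 rose and 1 fell at d3, 1 rose and 10 fell at d6, and 1 rose and 3 fell at d10 against d6. Fastkd5, needed to process mitochondrial RNA, had 15.7 ± 0.726 FPKM at d3 against 4.22 ± 0.189 at d0 (log2 change 1.68, adjusted p = 1.84e-10), and Pnpt1, the mitochondrial polynucleotide phosphorylase, 20.7 ± 0.788 at d6 against 48.8 ± 1.32 at d3 (log2 change -1.20, adjusted p = 8.89e-06). Transcriptional regulators of respiration genes rose in 5 and fell in 7 of 13 cases from d0 to d10, beside 42.2% of all genes up and 28.6% down. Esrrb, a nuclear receptor of ES cells, had 0.368 ± 0.16 FPKM at d10 against 15.4 ± 1.66 at d0 (log2 change -3.59, adjusted p = 5.08e-13), and Gabpa, an ETS factor, 12.7 ± 1.85 against 34.6 ± 1.77 (log2 change -1.39, adjusted p = 2.94e-07). Between genotypes at d10, 6 of the 39 assembly factors, 3 of 17 cycle genes and 1 gene each of cytochrome c, carriers, mitochondrial DNA and import genes were higher in Carma3xpA/+ and 0 in these lists lower, beside 4.95% of all genes up and 5.91% down. The last 4 lists had 3, 10, 15 and 14 tested genes. The import gene was Phb, a prohibitin, at 92.7 ± 9.04 FPKM in Carma3xpA/+ against 58.5 ± 0.587 in WT (log2 difference 0.65, adjusted p = 7.91e-05), and it also lies on chromosome 11.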

How the data were processed

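Polyadenylated RNA of 24 libraries was measured in 8 groups of 3. The deposited tables hold FPKM per gene and per transcript, computed by the authors. The tools named in the submitters' processing notes are FastQC, cutadapt, HISAT2 and StringTie, with mm10 as the build; settings and versions are not given. Depth is unknown, so no counting interval is given. All 24 sample columns were mapped by name and 0 were left unused.

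The filter on low values kept 13373 genes, those at 1 FPKM or more in 3 or more libraries. limma 3.58.1 in R 4.3.3 was fitted with a trend to log2(FPKM + 1) over all 8 groups (16 residual degrees of freedom). A log2 change is a difference on that scale and understates changes of low genes. Tests are two-sided with Benjamini-Hochberg adjustment over all tested genes, and called means an adjusted p under 0.05. ± is SE for changes and SD over 3 libraries for levels. The fit was tested on simulated data. Transcripts were fitted in the same way. Summaries and figures used Python 3.11.15, pandas 2.3.3 and matplotlib 3.10.9.

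The members and lists were chosen with earlier results of these data known. Named were the isoforms of complex IV with their partners, the mitochondrial genes, per comparison the 4 largest called changes each way among genes whose higher group averaged 5 FPKM or more, the highest and lowest member of each class, and up to 4 called genes of a list. Members of small counts, and the remaining genes called between genotypes, were named after their values were seen. Epas1 and Tnnt2 come from the gene and marker lists. Alternatives were other pseudocounts, filters and scalings, a fit of only the groups compared, a replicate block, library weights and leaving out each library.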

Additional observations from a re-analysis of the deposited data

Results flagged for a closer look

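Cox8b differed between genotypes at d10 by 0.93 on the log2 scale. The difference at d10 less that at d0 was the same 0.93 (SE 0.20, limma adjusted p = 0.00682), because every d0 library was at 0, and is no further test. The difference at d10 less that at d6 was 1.003 (SE 0.20, adjusted p = 0.00451), where every d6 library was under 1 FPKM. It too rests on the d10 difference. Cox8b passed the filter on low values only through its d10 libraries. Of 103 members it was the 1 called in each test, beside 6.25% and 4.22% of all genes. Both tests share the d10 libraries. Cox8b had 3.13, 3.17 and 4.40 FPKM in Carma3xpA/+ and 1.25, 2.17 and 0.896 in WT at d10, and 0, 0.199 and 0.186 in Carma3xpA/+ and 0.241, 0 and 0.339 in WT at d6. All 3 Carma3xpA/+ libraries lay above all 3 WT libraries at d10. Both calls were lost with a pseudocount of 0.1 (adjusted p = 0.271 and 0.227) and in fits of only the groups compared (0.0762 and 0.068). Markers of cardiomyocytes at d10 summed to 1124 to 1684 FPKM in Carma3xpA/+ and 454 to 678 in WT, those of skeletal muscle (5 of 6 in the table) to 70.04 to 96.6 in Carma3xpA/+ and 31.5 to 44.9 in WT, and those of brown adipocytes, which also use Cox8b (2 of 3 in the table), to 0.772 to 1.61 in Carma3xpA/+ and 0.832 to 1.14 in WT. The skeletal muscle sum was higher at d0, where Cox8b was at 0, with 125 to 145 FPKM in Carma3xpA/+ and 104 to 122 in WT. Cox6a2, also a heart and skeletal muscle isoform, was not called between genotypes at d10. The part of these cell types in the Cox8b difference was not tested.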

How the results depend on the processing

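Counts of called members moved with the variance estimate and the scaling. A fit of only the groups compared called 27 against 57 for Carma3xpA/+ d10 and d0, and between genotypes 0 against 38 at d0 (24 at an unadjusted p under 0.05), 14 against 4 at d3, 2 against 6 at d6 and 6 against 12 at d10. Library weights called 74 against 49 for WT d3 and d0, and 19, 15 and 63 between genotypes at d3, d6 and d10. In Carma3xpA/+ at d10 the weighted fit rests largely on replicate 3, with a weight of 5.77. Quantile normalization called 36 against 62 for WT d10 and d6, and median-of-ratios scaling 35 against 57 for Carma3xpA/+ d10 and d0. For WT d10 and d0 median-of-ratios scaling left 47 members higher and 9 lower, against 67 and 7 as deposited. For WT d3 and d0 it left 29 higher and 9 lower, against 40 and 9. A pseudocount of 0.1 called 7 at d10. Without chromosome 11 genes 2 and 6 were called at d3 and d10. For the genotype difference at d10 less that at d0, with 1 call, limma gave 0 with a pseudocount of 0.1, a filter of 5 FPKM or only the groups compared (12, 10 and 4 at an unadjusted p under 0.05), 3 with quantile normalization and 14 with weights. For d10 less d6, with 1 call, the same 3 settings gave 0 (11, 11 and 22 unadjusted), and every gene above 0, median-of-ratios scaling and the replicate block gave 2 each and weights 35.

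Leaving out 1 library at a time gave 40 to 64 for WT d3 and d0, 26 to 56 for d6 and d3, 40 to 77 for d10 and d6, 62 to 80 for d10 and d0, and 48 to 79 for Carma3xpA/+ d10 and d0. Between genotypes it gave 20 to 68 at d0, 4 to 8 at d3, 2 to 11 at d6 and 5 to 27 at d10, 1 to 5 and 1 to 6 for the changes of the difference, and 67 to 73 for transcripts (83 in the full fit). Without WT d6 replicate 3 the d6 step had 26 and the d10 step 40. At d0, 20, 21 and 22 were called without WT replicates 1 and 2 and Carma3xpA/+ replicate 1, and 68 without Carma3xpA/+ replicate 2. At d6, 2 were called without WT replicate 2, and 3 without Carma3xpA/+ replicate 1 or 3. Without Carma3xpA/+ d0 replicate 1, which enters the shared spread, 8, 11 and 27 were called at d3, d6 and d10. At d10, 5 were called without WT replicate 1 or Carma3xpA/+ replicate 3, 6 without WT replicate 3 or Carma3xpA/+ replicate 2, 7 without WT replicate 2 and 24 without Carma3xpA/+ replicate 1.

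The labels give each group replicates 1 to 3. Same-numbered deviations correlated between -0.263 and 0.198 and in no comparison were all above 0.1, so the numbers were not taken as pairs. With a replicate block 49, 40, 60, 73 and 57 members were called over time and 34, 4, 5 and 8 between genotypes, 1 and 2 for the changes of the difference, and 78 transcripts. Over alternatives for part of the named genes' calls, 989 kept their side of the threshold, 68 were lost and 0 reversed. Not in these counts are, among others, the d6 call of mt-Nd6 and the d10 genotype calls of Uqcr10, Ndufs7, Atp5d, Ndufa9, Ndufaf1 and Atp5a1. Their losses are given above. The cause was not tested. The 3 libraries a group and unknown depth limit precision for genes of low FPKM.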
